A study of Rattus norvegicus with 16 samples.

Results

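The kidney cortex of BRCA1+/- rats was compared with that of wild-type rats after both had received ferric nitrilotriacetate (Fe-NTA) for 3 weeks. The comparison used 3 arrays of each genotype, chosen by their titles, so 6 of the 16 arrays of the series. All animals were male Jcl:SD rats, an outbred Sprague-Dawley stock. BRCA1+/- rats carried 1 altered and 1 normal Brca1 allele in every tissue, and wild-type rats carried 2 normal alleles. Injection into the peritoneum began at 4 weeks of age, with 5 mg iron per kg for the opening pair of doses and 7 mg iron per kg for the 3 that closed the first week. In the remaining weeks the dose was 10 mg iron per kg, given 5 times per week, and the cortex was taken 48 hours after the last injection. The other arrays were 3 of each genotype after 1 week of the same protocol and 2 of each genotype from untreated cortex. The titles number the arrays within a group without stating that each came from a different rat, so p-values measure the spread between arrays.

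Fe-NTA is an iron chelate that is filtered at the glomerulus and taken to the proximal tubule, where iron drives lipid peroxidation. Repeated dosing injures the proximal tubule, which then regenerates, and long dosing is a classical model of renal carcinogenesis in rodents. BRCA1 works with BARD1 as a ubiquitin ligase and directs repair of DNA double-strand breaks by homologous recombination. Cortex is a mixture of nephron segments, vessels, stroma and blood. In such bulk tissue fewer cells of a type cannot be told apart from less RNA per cell.

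Levels are given as log2 of the scanner's processed signal minus the 75th percentile of that array, so that 0 is the 75th percentile and 1 unit is a 2-fold step. The 6 arrays had between 40.5% and 60.5% of their probes well above background, and wild-type array 3 was the one at 60.5%. The other 5 lay between 40.5% and 48.8%. Over the 16024 genes tested, Pearson's r between arrays was 0.970 to 0.981 within wild type, 0.966 to 0.980 within BRCA1+/- and 0.953 to 0.978 between genotypes. The arrays shared 2 slides: wild-type arrays 1 and 2 were on slide 1 with BRCA1+/- array 3, and wild-type array 3 was on slide 2 with BRCA1+/- arrays 1 and 2. The proximal tubule markers Slc34a1 and Lrp2 were well above background on every one of the 6 arrays.

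No gene passed the test for a genotype difference after 3 weeks. At an adjusted p under 0.05 (limma, Benjamini-Hochberg over all genes) 0 of 16024 genes were called, a share of 0%. The smallest adjusted p was 0.286, or 0.603 among genes with a plain symbol. At an unadjusted p under 0.05 there were 933 genes, of which 378 were higher in BRCA1+/- (2.36% of those tested) and 555 were lower (3.46%). Scaling each array to the median of the probes detected on all arrays gave 292 higher and 691 lower in place of that split. On 1920 genes (12%) the 3 BRCA1+/- arrays all lay above the 3 wild-type arrays, and on 1376 genes (8.59%) they all lay below. The median difference over all genes was 0.05 on the log2 scale, with 55.0% of genes above 0.

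The precision of 3 arrays against 3 limits what this shows. For the median gene the 95% confidence interval reached 0.68 to either side on the log2 scale. For 8778 genes (54.8%) the interval lay inside a 2-fold difference in either direction, and for the others these arrays cannot exclude a difference of that size. Weighting the arrays by their estimated quality gave 31 called genes, 12 higher and 19 lower in BRCA1+/-, in place of 0. That fit gave wild-type array 2 a weight of 3.94, against 0.74 to 1.46 for the other 5 arrays. The genes below are therefore given by their values on each array, as differences that did not pass.

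Mmp7 had the largest difference among the genes of smallest p. It encodes matrilysin, a small secreted matrix metalloproteinase that epithelial cells make after injury and that is a known target of Wnt and beta-catenin signalling. Its probe lies on rn4 chromosome 8 at 4533647 to 4533706, plus strand. On the wild-type arrays Mmp7 measured -1.59, -2.38 and -0.59, and on the BRCA1+/- arrays 1.77, 1.99 and 1.95. The BRCA1+/- arrays lay close together and far above the wild-type ones, of which 1 of 3 was well above background. The difference was 3.42 ± 0.73 (SE), with a 95% interval of 1.87 to 4.98 and an adjusted p of 0.603. Setting dim values to the detection limit gave 3.24 with an adjusted p of 0.000954. The normexp background correction gave 1.41 with 0.000541, and array weights gave 3.86 with 0.0456, so whether this gene passes depends on those settings. Within slide 1 the difference was 3.94 and within slide 2 it was 2.47. After 1 week the genotype difference in Mmp7 was -0.99 (adjusted p = 0.623) and in untreated cortex it was -0.35.

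The sequence just upstream of the Mmp7 start is shown because Mmp7 had the largest difference among the named genes of smallest p. It is the 250 bases before the RefSeq start on GRCr8, chr8:13132793-13133042, plus strand, written 5′ to 3′. Capitals mark every match, on either strand, to the AP-1 letters TGAGTCA and to the TCF/LEF letters CTTTGAT, which do not overlap each other here.
Mmp7: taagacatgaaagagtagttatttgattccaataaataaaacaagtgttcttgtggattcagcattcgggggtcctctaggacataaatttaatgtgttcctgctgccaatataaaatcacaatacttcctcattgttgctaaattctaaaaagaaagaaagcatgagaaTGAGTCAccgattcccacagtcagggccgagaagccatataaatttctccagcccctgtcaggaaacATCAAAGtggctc
The AP-1 match begins 80 bases before the start, and the TCF/LEF match, on the minus strand, begins 13 bases before it. Of 33469 RefSeq promoter windows of 250 bases, 4.05% hold the AP-1 letters, 3.15% the TCF/LEF letters and 0.123% both. These matches are a description of the letters and no measurement of binding.

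The other genes of smallest p that were higher in BRCA1+/- were mostly dim. Slc13a5, the sodium-coupled citrate transporter, measured -2.78, -1.28 and -3.21 in wild type and -0.26, -0.90 and -0.29 in BRCA1+/-. Every BRCA1+/- array lay above every wild-type array, and 1 of 3 wild-type arrays was above background. Slc13a5 differed by 1.94 ± 0.43 (adjusted p = 0.671), and Zbtb25, a zinc finger protein above background on all 6 arrays, by 0.95 ± 0.22. Slc34a2, a sodium phosphate cotransporter of lung and intestine, was well above background on 0 of 3 wild-type arrays and on 3 of 3 BRCA1+/- arrays. With dim values at the detection limit of -1.71, the highest of the 16 arrays' weakest signals above background, it was at least 2.55-fold higher in BRCA1+/- (adjusted p = 0.72 as measured, 0.81 at the limit). Its measured means were -2.49 and -0.36. For Zfp334, Bnipl and Bcap29 the differences of 1.60, 1.54 and 1.49 rested on wild-type signals of which 1 of 3 was above background. With array weights these 3 genes and Zbtb25 passed (adjusted p of 0.0456 to 0.0486). With dim values at the detection limit Zfp334 and Bnipl had a difference of 0. Without wild-type array 3, Bnipl passed (2.05, adjusted p = 0.0385).

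**Figure D1:**
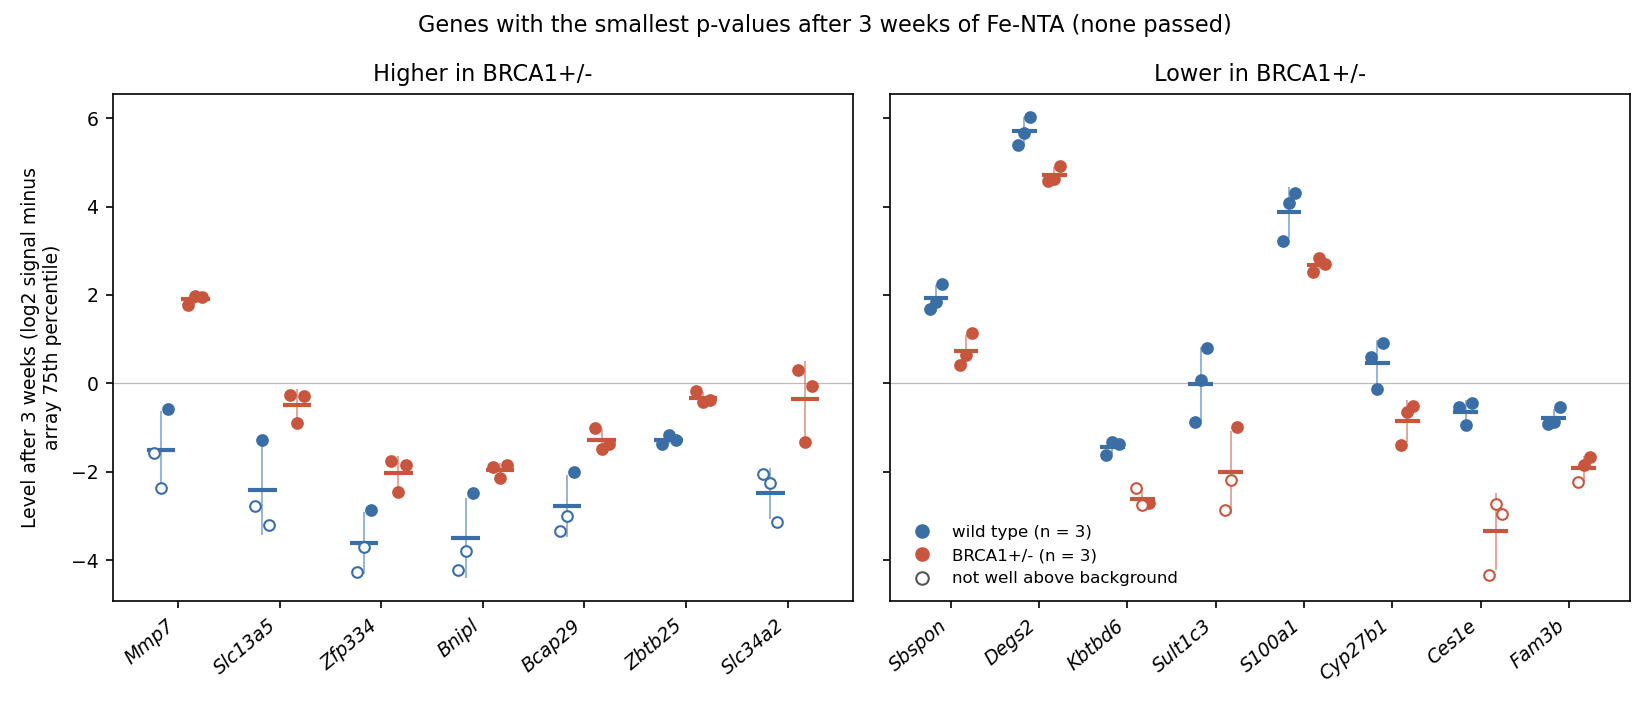
Level after 3 weeks (log2 signal minus the array's 75th percentile) of 7 genes higher and 8 genes lower in BRCA1+/-, of smallest p among genes with plain symbols whose arrays do not overlap; points are arrays (3 wild type, 3 BRCA1+/-), horizontal bars are means, vertical lines are 1 SD, and open points are not well above background. Mmp7 shows the widest gap, with BRCA1+/- arrays at 1.77 to 1.99, and Ces1e has open points on all BRCA1+/- arrays.

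The genes of smallest p that were lower in BRCA1+/- included tubular enzymes. Sbspon, a secreted protein with somatomedin B and thrombospondin domains, measured 1.67, 1.84 and 2.25 in wild type and 0.42, 0.65 and 1.13 in BRCA1+/-. The arrays did not overlap, and the difference was -1.19 ± 0.24 (adjusted p = 0.603). Its other probe above background gave -1.51. Cyp27b1, the renal hydroxylase that makes active vitamin D, measured 0.59, -0.12 and 0.91 in wild type and -1.41, -0.64 and -0.52 in BRCA1+/-. Every BRCA1+/- array lay below every wild-type array, by -1.31 ± 0.33 on average (adjusted p = 0.72). Degs2, an enzyme of phytoceramide synthesis, differed by -0.99 ± 0.23 and S100a1, a calcium-binding protein, by -1.19 ± 0.29. Sult1c3, a sulfotransferase, differed by -2.01 ± 0.49 and was above background on 1 of 3 BRCA1+/- arrays. Ces1e, a carboxylesterase, was above background on 3 of 3 wild-type and 0 of 3 BRCA1+/- arrays. It was at least 2.11-fold higher in wild type with dim values at the detection limit (adjusted p = 0.72 as measured, 0.816 at the limit), with measured means of -0.64 and -3.35. Kbtbd6 and Fam3b differed by -1.17 and -1.14. With array weights Sbspon, Degs2, Kbtbd6 and S100a1 passed (adjusted p of 0.0357 to 0.0456), and Fam3b passed with dim values at the detection limit (-0.92, adjusted p = 0.0464).

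Genes of the collecting duct were the nephron group with the lowest median. The collecting duct reabsorbs sodium through the epithelial channel ENaC and water through aquaporin 2, and some of its intercalated cells secrete acid and ammonia. Of 23 listed genes 20 were tested and 0 were called. Their median difference was -0.62, against 0.05 over all genes. There were 17 members below 0 and 3 above, and 10 members were lower at an unadjusted p under 0.05, or 50% against 3.46% of all genes. On 9 members (45.0%, against 8.59% of all genes) the BRCA1+/- arrays all lay below wild type. The mean level of the 20 genes was 1.88 to 2.40 on the wild-type arrays and 1.56 to 1.61 on the BRCA1+/- arrays. Leaving out 1 array in turn left between 5 and 11 members at an unadjusted p under 0.05, with 5 and a median of -0.41 without wild-type array 3. The median was -0.50 within slide 1 and -0.90 within slide 2.

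All 3 ENaC subunits lay lower in BRCA1+/-. Scnn1a, the alpha subunit, measured 1.30, 1.58 and 1.77 in wild type and 0.55, 0.71 and 0.33 in BRCA1+/-. Scnn1b, the beta subunit, measured -0.38, 0.10 and 0.27 against -1.97, -1.27 and -0.89. Scnn1g, the gamma subunit, measured 0.83, 1.14 and 1.57 against 0.15, 0.23 and 0.41. For each subunit no BRCA1+/- array reached the lowest wild-type array. The differences were -1.02 ± 0.27, -1.37 ± 0.45 and -0.92 ± 0.24, with adjusted p of 0.727, 0.81 and 0.72. Scnn1a passed with array weights (-1.05, adjusted p = 0.0456). Aqp2, the vasopressin-regulated water channel, measured 8.07, 8.28 and 8.17 in wild type and 7.28, 7.58 and 7.42 in BRCA1+/-. The ammonia channels Rhcg and Rhbg differed by -1.04 and -0.86, the transcription factor Foxi1 of intercalated cells by -0.68 and the proton pump subunit Atp6v0d2 by -0.56. Slc26a4, another gene of intercalated cells, differed by 0.09, Car2 by 0.13 and Kit by 0.39, with arrays that overlapped. Slc4a9 differed by -0.68 ± 0.33, also with overlap. In untreated cortex the ENaC differences were 0.23, 0.70 and -0.09, and after 1 week 0.73, -0.19 and 0.23.

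The thick ascending limb and the distal convoluted tubule divided into members on either side of 0. These segments reabsorb salt through Slc12a1 (NKCC2) and Slc12a3 (NCC). Of 24 listed genes 22 were tested, 14 were below 0 and 8 above, with a median of -0.34. There were 6 lower at an unadjusted p under 0.05 (27.3%, against 3.46% of all genes) and 0 higher. Slc12a3 measured 4.58, 4.98 and 5.23 in wild type and 3.75, 3.96 and 4.57 in BRCA1+/-. Each BRCA1+/- array lay below each wild-type array, by -0.84 ± 0.24 on average (adjusted p = 0.788). Its other probe gave -0.80. Bsnd, the chloride channel subunit barttin, differed by -1.03 ± 0.32, and Kcnj10, the basolateral potassium channel of the distal convoluted tubule, by -1.57 ± 0.51. Bsnd passed with array weights (-1.18, adjusted p = 0.0456). Fxyd2, the sodium pump's gamma subunit, differed by -0.56. The thick limb genes Slc12a1 (0.53 ± 0.48) and Umod (0.33 ± 0.58) overlapped between genotypes, and Cldn19 and Ptger3 lay above wild type on all BRCA1+/- arrays.

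**Figure D2:**
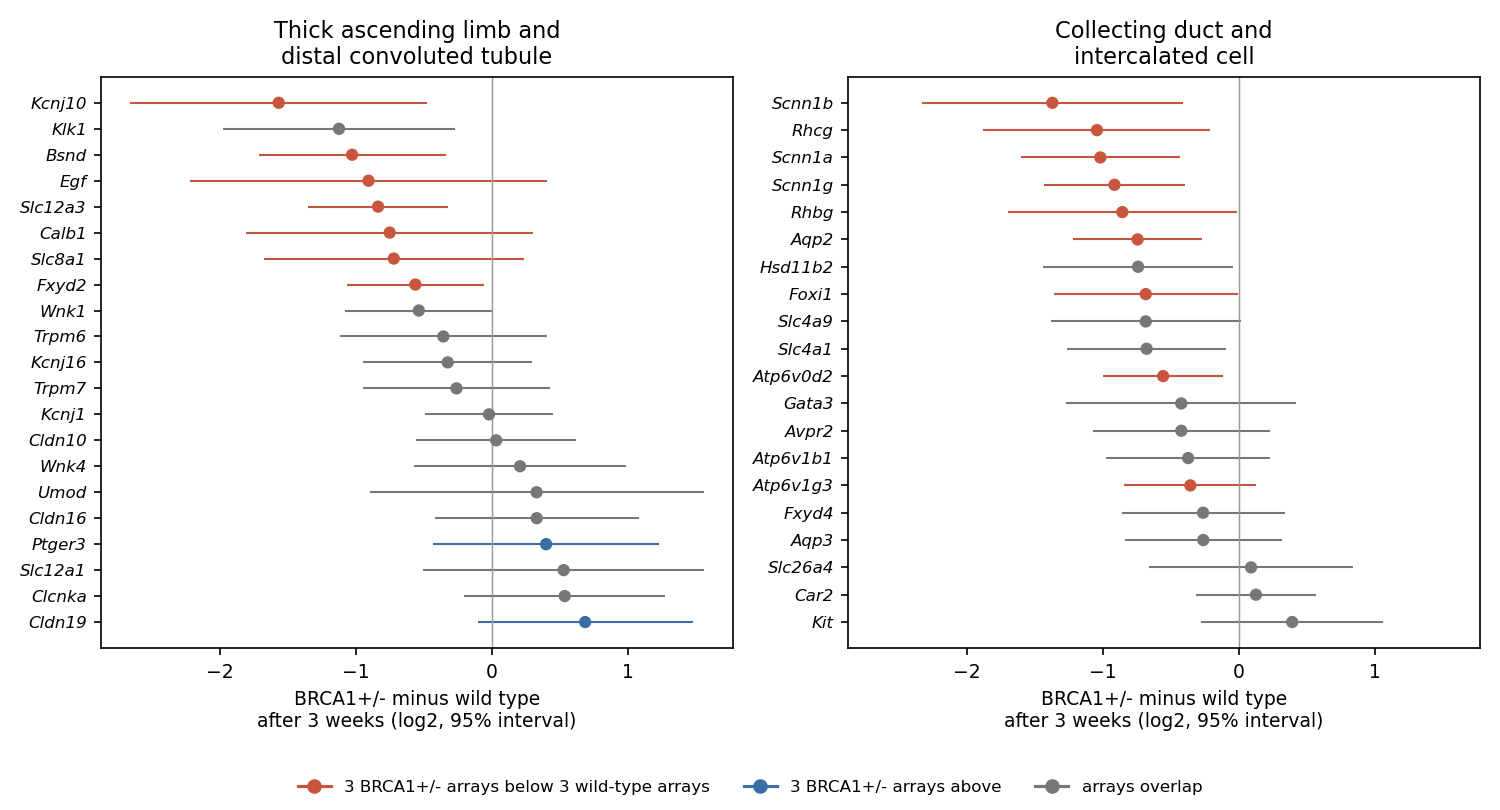
Genotype difference after 3 weeks (BRCA1+/- minus wild type, log2) of 21 of the 22 thick limb and distal convoluted tubule genes and the 20 collecting duct genes tested, with 95% confidence intervals from the limma fit before adjustment; red marks genes whose 3 BRCA1+/- arrays all lie below the wild-type arrays, blue all above, grey overlap. In the collecting duct list 17 of 20 points lie below 0, and the 3 ENaC subunits lie at -1.37, -1.02 and -0.92.

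Proximal tubule genes were spread around 0. The proximal tubule reabsorbs most of the filtrate and makes glucose, and it is the segment that Fe-NTA injures. Of 50 listed genes 46 were tested, with 26 below 0, 20 above and a median of -0.18. At an unadjusted p under 0.05, 6 were lower (13.0%, against 3.46% of all genes) and 0 were higher, and the count of lower genes was 1 without wild-type array 3 or without BRCA1+/- array 1. The median was 0.02 without wild-type array 1 and 0.08 without BRCA1+/- array 1. BRCA1+/- array 1 had the lowest mean level of these genes, 2.96, against 3.38 and 3.84 on the other BRCA1+/- arrays and 3.47 to 3.81 in wild type. Pck1, the enzyme that commits carbon to gluconeogenesis, measured 4.87, 5.17 and 5.91 in wild type and 2.73, 4.75 and 4.25 in BRCA1+/-. Its arrays did not overlap, and its difference was -1.41 ± 0.58 (adjusted p = 0.81). Slc6a19, the transporter of neutral amino acids, differed by -1.30 ± 0.50 and Upb1, an enzyme of pyrimidine breakdown, by -1.04 ± 0.40. The phosphate transporter Slc34a1 (-0.41) and the endocytic receptor Lrp2 (0.19) had arrays that overlapped.

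Metabolic lists of the tubule had medians a little below that of all genes. Fatty acid oxidation had a median of -0.15 over 43 genes, oxidative phosphorylation -0.17 over 43 and gluconeogenesis and glycolysis -0.15 over 24. In oxidative phosphorylation 33 genes were below 0 and 10 above, with 0 at an unadjusted p under 0.05. In the normexp setting 16 of its genes were lower at that p, against 545 of all 16024 genes. Atp5f1c, a subunit of ATP synthase, differed by -0.40 ± 0.25. Acaa2, the last enzyme of mitochondrial beta oxidation, measured 4.16, 3.98 and 4.39 in wild type and 2.87, 3.09 and 3.56 in BRCA1+/-. The arrays did not overlap, with a difference of -1.0 ± 0.30 (adjusted p = 0.788). Ephx1, the microsomal epoxide hydrolase, which is counted in the p53 target list, differed by -0.82 ± 0.35.

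Genes of tubular injury and repair leaned the other way. Of 36 listed genes 31 were tested and 0 called, with 26 above 0 (83.9%, against 55.0% of all genes), 5 below and a median of 0.46. Their mean level was 1.85 to 2.34 on the wild-type arrays and 2.42 to 2.54 on the BRCA1+/- arrays. At an unadjusted p under 0.05, 6 were higher (19.4%, against 2.36% of all genes) and 0 lower. Leaving out 1 array in turn gave 2 to 12 higher, with 2 without BRCA1+/- array 3, 3 without wild-type array 3 or BRCA1+/- array 1, and 12 without wild-type array 1. Cdh6, a cadherin of the developing nephron, measured 4.29, 3.84 and 2.96 in wild type and 4.91, 4.57 and 4.97 in BRCA1+/-. Clu, the injury-induced chaperone clusterin, measured 5.32, 5.42 and 5.48 against 6.36, 6.06 and 6.73. The genotypes did not overlap on either gene, and the differences were 1.12 ± 0.44 and 0.97 ± 0.37 (adjusted p = 0.81 for both). Sox4, a developmental transcription factor, differed by 0.93 ± 0.34. Of the standard injury markers, Havcr1 (KIM-1) measured 2.91, 1.92 and 2.01 against 3.03, 2.55 and 3.33, and Lcn2 (NGAL) 4.43, 3.43 and 3.53 against 5.26, 4.65 and 4.02. Both overlapped, with differences of 0.69 ± 0.41 and 0.85 ± 0.51. Spp1, osteopontin, measured 9.25, 8.85 and 7.95 against 9.27, 9.41 and 9.36, a difference of 0.67 ± 0.38 with BRCA1+/- arrays just above.

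Immediate early genes and matrix genes had medians of similar size. The lists share members: Egr1 is in the injury list too, and Ccn1 is counted in both lists here. The immediate early and AP-1 list had 21 genes tested, 15 above 0 and a median of 0.45. There were 4 higher (19.0%, against 2.36% of all genes) and 1 lower at an unadjusted p under 0.05. Within slide 2 its median was 0.13, and 2 were higher without wild-type array 2 or BRCA1+/- array 3. Egr1, a zinc finger factor switched on within minutes of a stimulus, measured 0.20, 0.42 and -0.64 in wild type and 1.44, 1.16 and 1.15 in BRCA1+/-. The arrays did not overlap, and the difference was 1.25 ± 0.38 (adjusted p = 0.788). Klf4 and Atf3 differed by 1.00 and 0.87, whereas Jun overlapped at 0.18. The fibroblast and matrix list had 35 of 36 genes above 0, a median of 0.44 and 3 genes higher at an unadjusted p under 0.05 (8.33%, against 2.36% of all genes). That count was 2 without wild-type array 3 or BRCA1+/- array 3, 6 without wild-type array 1 and 8 without BRCA1+/- array 2. Fn1, the matrix glycoprotein fibronectin, measured 2.06, 1.69 and 1.50 against 3.20, 2.65 and 4.25. BRCA1+/- array 3 was highest and no BRCA1+/- array reached down to wild type. The difference was 1.62 ± 0.42 (adjusted p = 0.72), and array weights gave 1.69 with 0.0456. Ccn1, a matricellular protein and YAP target, differed by 0.97 ± 0.30 and Thbs1 by 0.58 ± 0.22. The collagens Col1a1 (0.50 ± 0.49) and Col3a1 (0.67 ± 0.43) overlapped.

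By their mean level, red cell genes lay above wild type on all BRCA1+/- arrays. Of 16 erythroid genes listed 11 were tested, with 10 above 0 and a median of 1.45, the highest of the 37 lists. At an unadjusted p under 0.05, 7 were higher (63.6%, against 2.36% of all genes), and this count was 2 without wild-type array 1, 3 without BRCA1+/- array 2 and 4 without wild-type array 3. The member below 0 was Slc4a1 (-0.68 ± 0.27), the anion exchanger that red cells share with intercalated cells. Hbb-bs, a beta globin, measured 1.83, 3.23 and 3.14 in wild type and 5.05, 5.79 and 5.86 in BRCA1+/-. No array overlapped, and the difference was 2.83 ± 0.77 (adjusted p = 0.732). Hba-a1 measured 6.89, 8.22 and 6.85 against 8.39, 9.03 and 8.84. Alas2, the red cell enzyme that opens heme synthesis, differed by 1.79 ± 0.62 with 1 of 3 wild-type arrays above background. The mean level of the list was 0.37 to 1.60 in wild type and 1.92 to 2.48 in BRCA1+/-. Its median difference was also above 0 in untreated cortex (1.25) and after 1 week (0.69), on other arrays and without a call. Globin genes are near-identical copies, so probes can read more than 1 of them. How far blood left in the tissue enters the other differences was not tested.

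**Figure D3:**
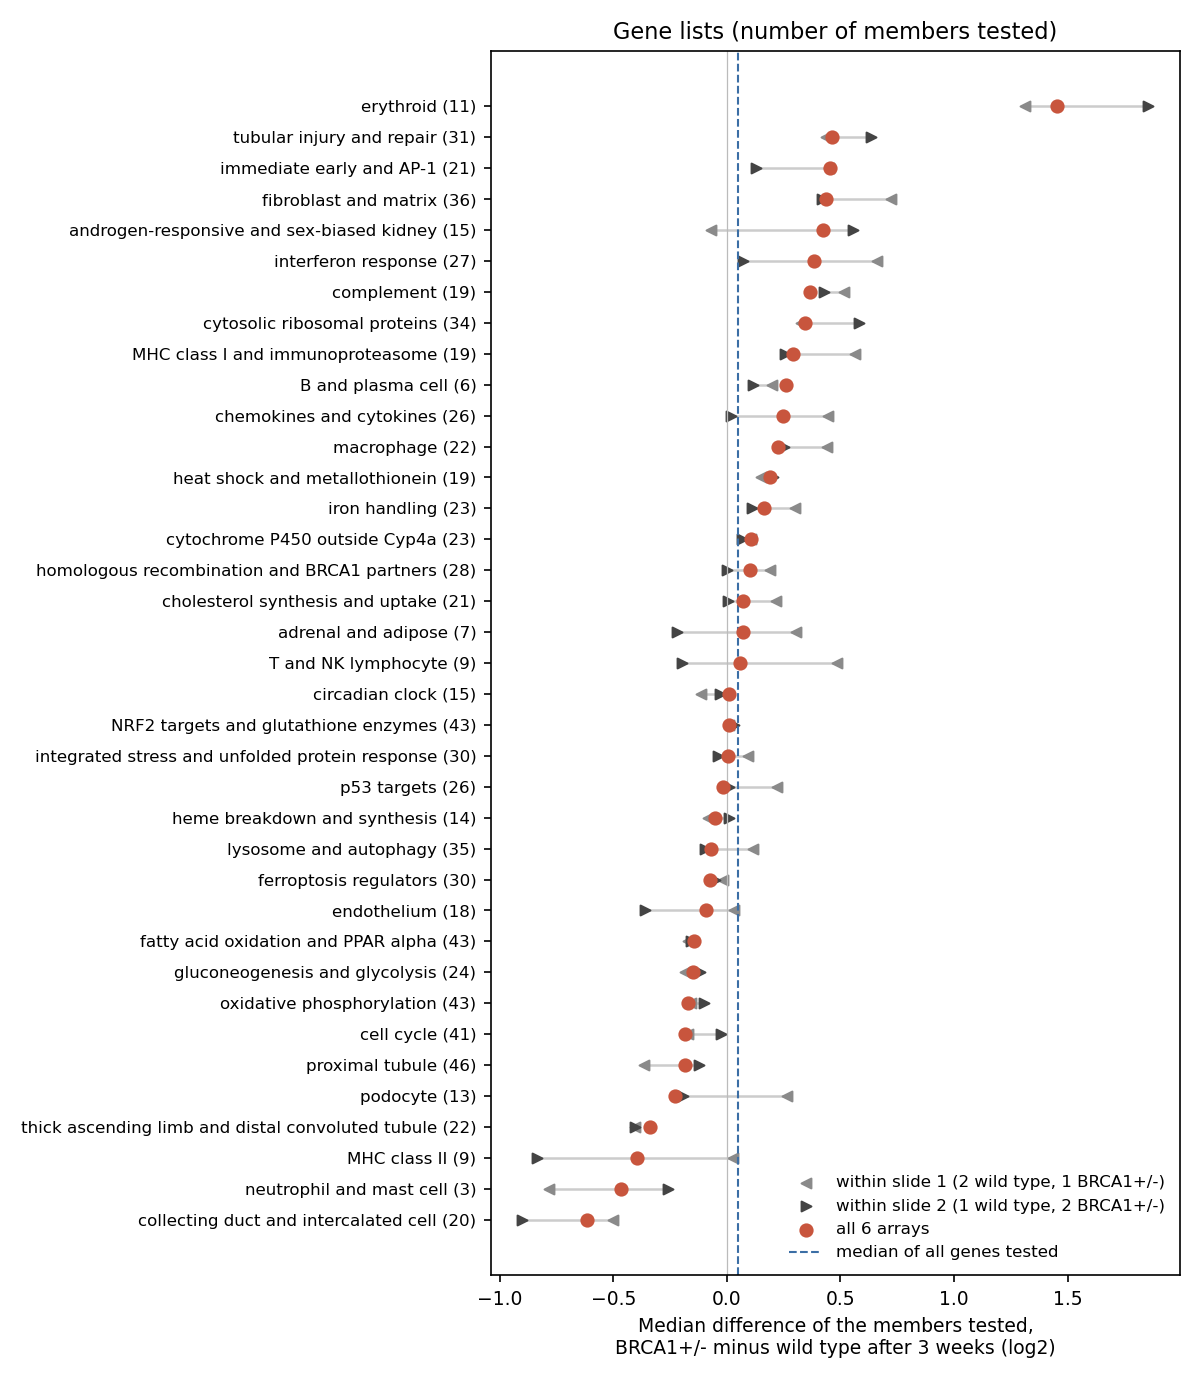
Median genotype difference after 3 weeks (log2, BRCA1+/- minus wild type) of the tested members of each of the 37 gene lists: red points use all 6 arrays, grey and black triangles only the arrays of slide 1 or slide 2, and the dashed line is the median of all genes tested. The erythroid list lies highest at 1.45 and the collecting duct list lowest at -0.62, on the same side of 0 within both slides.

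Iron handling gave 17 of 23 tested genes above 0, with a median of 0.16. Of them 2 were higher at an unadjusted p under 0.05 (8.70%, against 2.36% of all genes), and the median was 0.02 without BRCA1+/- array 3. Tf, the plasma iron carrier transferrin, measured 0.83, 0.91 and 0.40 in wild type and 3.57, 2.81 and 1.96 in BRCA1+/-. Every BRCA1+/- array lay above wild type, by 2.07 ± 0.51 (adjusted p = 0.72). Tfrc, the transferrin receptor, was above background on 1 of 3 wild-type and 3 of 3 BRCA1+/- arrays and differed by 0.90 ± 0.41. Its difference was -0.22 within slide 2. The iron-storage subunits Fth1 and Ftl1 differed by 0.31 ± 0.25 and 0.06 ± 0.32, with 95% intervals of -0.22 to 0.85 and -0.62 to 0.74. The iron exporter Slc40a1 differed by 0.31 ± 0.20.

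Oxidative stress lists were centred near the median of all genes. NRF2 targets and glutathione enzymes had a median of 0.01 over 43 genes, with 22 above and 21 below 0. Ferroptosis regulators had -0.07 over 30 genes, and heme breakdown and synthesis -0.05 over 14. Hmox1, the heme-degrading enzyme, measured -2.37, -2.23 and -1.42 in wild type and -1.45, -2.08 and -2.94 in BRCA1+/-. The arrays overlapped, and the difference of -0.15 ± 0.45 had no stable sign, at 0.24 without BRCA1+/- array 3. Hmox1 was above background on 1 of 3 wild-type and 2 of 3 BRCA1+/- arrays. Gpx4, the lipid peroxidase that guards against ferroptosis, measured 8.96, 8.68 and 8.50 against 8.40, 8.86 and 8.81, a difference of -0.02 ± 0.32. Nqo1 (0.15 ± 0.38) and Gclc (0.65 ± 0.70) also overlapped. Slc7a11, the cystine transporter, did not pass the filter on dim probes. Ptgs2 differed by -0.84 ± 0.38, with 1 of 3 BRCA1+/- arrays above background. Acsl4, which makes peroxidation-prone lipids, differed by 0.97 ± 0.45, with 1 of 3 wild-type arrays above background. Heat shock and metallothionein genes had a median of 0.19 over 19 genes, and the metallothionein Mt2A differed by 0.61 ± 0.39.

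Brca1 itself did not differ by more than its spread. Its probe above background lies on rn4 chromosome 10 at 90512623 to 90512682, minus strand. On the wild-type arrays Brca1 measured -1.35, -0.83 and -1.87, and on the BRCA1+/- arrays -0.65, -1.19 and -0.81. The genotypes overlapped, with a difference of 0.47 ± 0.66, a 95% interval of -0.94 to 1.88 and an adjusted p of 0.88. The labels do not say which part of the gene the altered allele lacks, so this level does not check the genotype. Bard1, the partner of BRCA1, measured -0.16, -0.33 and -0.73 against -1.28, -0.67 and -0.76, a difference of -0.50 ± 0.39. Homologous recombination genes and BRCA1 partners had a median of 0.10 over 28 of 43 listed genes, with 18 above 0. Exo1, the nuclease that resects broken ends, had the smallest p of them and measured -0.88, -0.44 and -1.32 against -1.65, -1.52 and -1.84. Brca2 was dim, at 0.72 ± 0.47.

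Genes near Brca1 had a median close to that of all genes. Of the genes within 5 Mb of Brca1 by RefSeq position 178 were tested and 0 called, with a median of 0.04. There were 2 higher (1.12%, against 2.36% of all genes) and 9 lower (5.06%, against 3.46%) at an unadjusted p under 0.05. The BRCA1+/- arrays all lay above wild type on 20 of them (11.2%, against 12%) and all below on 19 of 178 (against 8.59%), shares near those of all genes. On the whole of chromosome 10 the median over 1031 genes was 0.02. Csf3, the granulocyte growth factor, lies within that window and differed by 1.66 ± 0.42 (adjusted p = 0.72), with 1 of 3 wild-type arrays above background. G6pc1, the glucose-6-phosphatase of gluconeogenesis, lies there too.

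Proliferation and p53 genes leaned little. The cell cycle list had a median of -0.18 over 41 genes, 28 of them below 0. Mki67 measured -0.87, -0.33 and -0.37 in wild type and -0.53, -1.29 and -1.06 in BRCA1+/-. These overlapped, and the difference was -0.44 ± 0.39, while its other probes gave 0.03, -0.07 and -0.72. Kif20a, a kinesin of cytokinesis, differed by -1.01 ± 0.36 without overlap (adjusted p = 0.81). p53 targets had a median of -0.02 over 26 genes. Cdkn1a, the p21 inhibitor of cyclin-dependent kinases, differed by -0.56 ± 0.33, with -0.02 within slide 1 and -1.19 within slide 2. Another Cdkn1a probe that passed the filter gave -1.08, without overlap. Eda2r differed by -0.81 ± 0.30, Pmaip1 by 0.78 ± 0.29 and Mdm2 by 0.65 ± 0.29.

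Immune lists had medians of both signs. Interferon response genes had 26 of 27 above 0 and a median of 0.38, which was 0.66 within slide 1 and 0.07 within slide 2. Gbp2, an interferon-induced GTPase, differed by 0.77 ± 0.29. MHC class I and immunoproteasome had 15 of 19 above 0 and 0.29, and the immunoproteasome subunit Psmb10 differed by 0.77 ± 0.28. MHC class II had 8 of 9 below 0 and -0.40, which was 0.03 within slide 1 and -0.84 within slide 2, and RT1-Bb differed by -0.56 ± 0.46. Macrophage genes had 20 of 22 above 0 and 0.22, with 0.05 without BRCA1+/- array 3. Their smallest p was that of Gpnmb, a glycoprotein of macrophages, at 0.79 ± 0.33. Complement had 0.36 over 19 genes, and C3, the central complement protein, measured 1.04, 0.58 and 0.54 against 1.34, 2.22 and 2.15. The arrays did not overlap, by 1.19 ± 0.51 on average (adjusted p = 0.81). Gbp2 and Psmb10 were each the 1 gene of their list at an unadjusted p under 0.05. These shares of 3.70% and 5.26%, against 2.36% of all genes, rest on 1 gene each. MHC class II had 0. In chemokines and cytokines (median 0.25 over 26) the neutrophil chemokine Cxcl6 differed by 1.87 ± 0.52 and oncostatin M, Osm, by -1.59 ± 0.42, both dim in 1 genotype. Lymphocyte and granulocyte lists rested on few genes above background, with 0.06 over 9 T and NK genes, 0.26 over 6 B and plasma cell genes and -0.47 over 3 neutrophil and mast cell genes. Among the last 2 lists the smallest p were those of the antibody joining chain Jchain (0.99 ± 0.56) and the IgE receptor subunit Fcer1a (-0.47 ± 0.31). None of these lists had a gene at an unadjusted p under 0.05.

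The remaining lists had these medians. Cytosolic ribosomal proteins had 33 of 34 genes above 0 and 0.34, which was 0.19 without wild-type array 3 and 0.11 with the normexp correction. Rps6, of the small subunit, differed by 0.49 ± 0.22. Androgen-responsive and sex-biased genes had 0.42 over 15 genes and -0.07 within slide 1, and Cyp4a2, a fatty acid hydroxylase, overlapped at 1.17 ± 0.67. Podocyte genes had -0.23 over 13 and endothelial genes -0.09 over 18, and the podocyte median was 0.07 without BRCA1+/- array 2. Plce1, a podocyte phospholipase, differed by 0.52 ± 0.33 and Cdh5, the endothelial cadherin, by -0.56 ± 0.31, while another Cdh5 probe gave 0.54. Adrenal and adipose genes, a check on neighbouring tissue, had 0.07 over 7, with Cyp21a1 at -0.60 ± 0.45. Cytochrome P450 genes outside Cyp4a had 0.11 over 23, cholesterol genes 0.07 over 21, lysosome and autophagy -0.07 over 35, stress and unfolded protein response 0.00 over 30 and the circadian clock 0.01 over 15. In them Stard4 (0.48 ± 0.22), Ddit4 (-0.90 ± 0.36) and Clock (-0.62 ± 0.31) had the smallest p, beside Cyp27b1 and Gpnmb above. Other probes gave -0.15 for Stard4, -0.07 for Clock and -0.87 for Ddit4.

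The 3-week difference was then set against that in untreated cortex, which asks whether genotype matters only under treatment. No gene was called in untreated cortex (0 of 16024, 0%; limma, 748 at an unadjusted p under 0.05), where each genotype had 2 arrays. The test of the 3-week difference minus the untreated difference called 0 genes as well (0%; limma, 760 at an unadjusted p under 0.05). Car3, a carbonic anhydrase of muscle, fat and liver, had the smallest p in it. It measured 4.60, 3.73 and 4.19 in wild type and 5.81, 5.36 and 6.93 in BRCA1+/- after 3 weeks. In untreated cortex it measured 2.61 and 1.86 in wild type and 0.00 and -1.51 in BRCA1+/-. The order of the genotypes thus differed between the conditions, with 1.86 ± 0.49 after 3 weeks and -2.99 ± 0.60 untreated, and the change between them was 4.85 ± 0.78 (adjusted p = 0.268). Zfp334 had 2.87 ± 0.57 (adjusted p = 0.719).

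After 1 week the genotypes had differed more, and the genes involved were looked at again on the 3-week arrays, which are separate arrays. The 1-week test called 79 genes higher in BRCA1+/- (0.493% of those tested) and 11 lower (0.0686%). It depends on single arrays: 4 genes were called without wild-type array 3 of that time point, whose r with its group was 0.905 and 0.908. There were 21 without wild-type array 2, 3 without BRCA1+/- array 1 and 1 without BRCA1+/- array 2. Among the 79 were proximal tubule genes such as Pck1, G6pc1, Slc34a1, Miox and Ppara. On the 3-week arrays their median difference was -0.33, with 58 below 0 and 21 above, or 73.4% below 0 against 45.0% of all genes. The BRCA1+/- arrays all lay below wild type on 16 of the 79 (20.3%, against 8.59% of all genes) and all above on 3 (3.80%, against 12%). None of the 79 was called after 3 weeks. At an unadjusted p under 0.05 (limma) 10 were lower (12.7%, against 3.46% of all genes) and 1 higher (1.27%, against 2.36%). Each gene's spread was fitted over all 16 arrays and entered the tests of both time points. These p-value counts are therefore not independent of the 1-week choice. The 11 genes that were lower after 1 week, among them Vim and Pdgfb, had a median of 0.19 after 3 weeks.

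**Figure D4:**
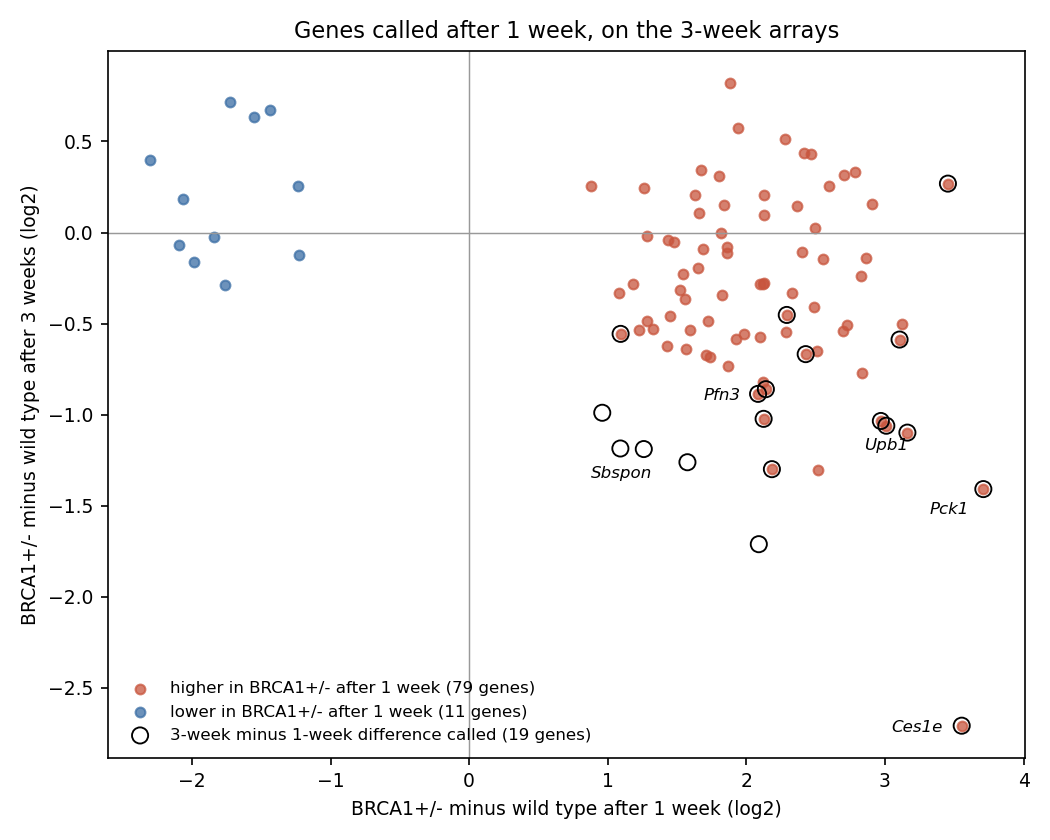
Genotype difference after 1 week (x, log2) against that after 3 weeks (y, log2), BRCA1+/- minus wild type, for the 90 genes called after 1 week; rings mark the 19 genes called in the test of the 3-week minus the 1-week difference, of which 14 are among the 90. Of the 79 genes to the right 58 lie below 0 on the vertical axis, and Ces1e lies lowest at -2.71.

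The test of that change called 19 genes, all of them below 0 (0.119% of those tested), and 0 above 0 (0%; limma, 1617 genes at an unadjusted p under 0.05). In each of the 19 BRCA1+/- exceeded wild type after 1 week, by 0.96 to 3.71 on the log2 scale. In 18 it lay below wild type after 3 weeks, by up to -2.71. The 19 were chosen by this change on these same arrays, so an opposite order at the time points partly follows from the choice. In untreated cortex their median difference was -0.11. The 5 with the smallest p were Upb1, Pfn3, Ces1e, Sbspon and Pck1, and the others with plain symbols included G6pc1, Fn3k, Ppara, Ttc36, S100a1, Degs2, Ces2g, B4galnt2 and Atp6v0d2. G6pc1, Pck1 and Ppara serve glucose and fatty acid metabolism, and Fn3k repairs glycated proteins. Since the test shares its 1-week arrays with the 1-week calls, the 14 genes that both called are no independent support. With the slide as a block 6 genes were called. The genotypes were divided over the slides alike at both time points. That block therefore could not move the size of a change, such as -4.01 in Upb1, and does not test for a slide effect on it.

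Upb1 measured -2.34, -1.94 and -1.71 in wild type after 1 week, with no array well above background, and 0.33, 1.71 and 0.88 in BRCA1+/-. Raising dim values to the detection limit left it at least 6.44-fold higher in BRCA1+/- at that time (adjusted p = 0.0173 as measured, 0.0194 at the limit). After 3 weeks it measured 0.55, 1.34 and 1.27 in wild type and -0.77, 0.84 and -0.03 in BRCA1+/-. The genotypes had changed places, though 1 BRCA1+/- array lay within the wild-type range. The change between the time points was -4.01 ± 0.57 (adjusted p = 0.0363), or -3.72 with dim values at the detection limit.

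Pck1 measured 0.46, 1.25 and 2.52 in wild type and 5.17, 6.03 and 4.16 in BRCA1+/- after 1 week. Untreated cortex gave 5.76 and 5.78 in wild type and 5.88 and 5.19 in BRCA1+/-. Wild type averaged 5.77 untreated, 1.41 after 1 week and 5.32 after 3 weeks, while BRCA1+/- averaged 5.54, 5.12 and 3.91. The effect of treatment within a genotype was not tested. The change in the genotype difference was -5.12 ± 0.83 (adjusted p = 0.042). In all 19 genes the 1-week wild-type mean was the lowest of the 6 group means, an order that choosing genes by this change favours.

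With dim values at the detection limit, Ces1e was at least 2.44-fold higher in BRCA1+/- after 1 week (adjusted p = 0.0327 as measured, 0.392 at the limit) and at least 2.11-fold higher in wild type after 3 weeks. The fitted change was -6.26 ± 0.95 (adjusted p = 0.0363) and was -2.36 with dim values at the detection limit. Pfn3, a profilin, changed by -2.97 ± 0.43 and Sbspon by -2.28 ± 0.35 (adjusted p = 0.0363 for both). Sbspon was above background on all 12 arrays, with group means of 0.28 and 1.37 after 1 week and of 1.92 and 0.73 after 3 weeks, wild type first.

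These calls rest on single arrays. No gene was called without wild-type array 2 or 3 or BRCA1+/- array 1 of 3 weeks, or without wild-type array 2 or BRCA1+/- array 2 of 1 week, and 2 were called without BRCA1+/- array 3 of 3 weeks. Without BRCA1+/- array 2 of 3 weeks 71 were called, without wild-type array 3 of 1 week 34, without BRCA1+/- array 1 of 1 week 11 and without BRCA1+/- array 3 of 1 week 93. The sign of the change in each of the 19 genes was the same under every setting that tested it. Those settings reuse the arrays on which the 19 were chosen.

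**Figure D5:**
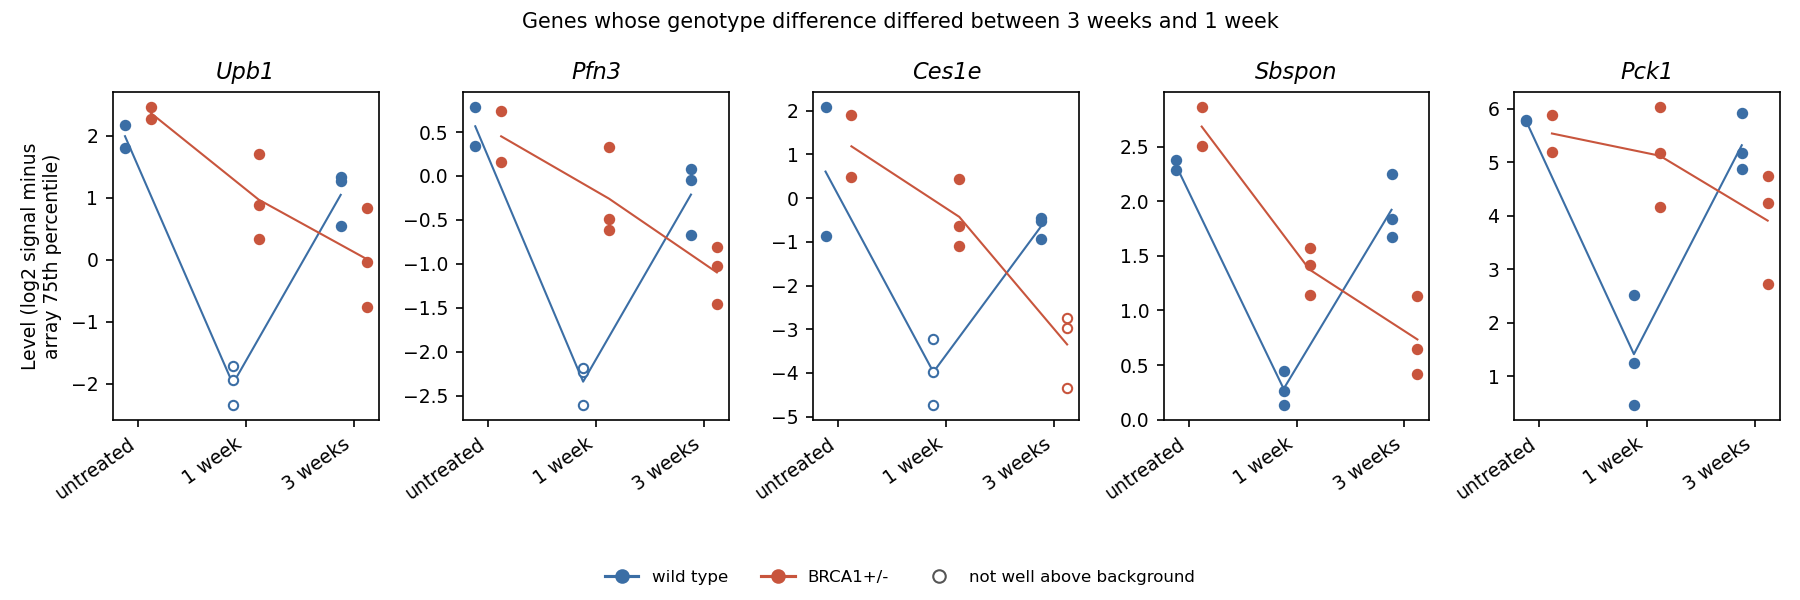
Levels (log2 signal minus the array's 75th percentile) of the 5 genes with the smallest p in the test of the 3-week minus the 1-week genotype difference, in untreated cortex (2 arrays per genotype) and after 1 and 3 weeks of Fe-NTA (3 per genotype); points are arrays, open points are not well above background, and lines join group means of different arrays. In each panel wild type lies below BRCA1+/- at 1 week and its mean lies above at 3 weeks.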

How the data were processed

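Labelled RNA (Cy3, single colour) from kidney cortex was hybridised to whole rat genome arrays with 45598 probes. Per the labels, spots were read with Agilent Feature Extraction 10.7, and the deposited processed signal is a background-corrected intensity on a linear scale. The log2 values of the authors' deposited table equal the log2 processed signal minus a constant near each array's 75th percentile, with no centring per gene. Flags for signal well above background are from the same scanner files, and no spot was saturated. Positions are rn4, per the file headers; 21229 probes were named through RefSeq accessions and the others by the name in the file.

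Computed here: log2 processed signal minus the array's 75th percentile over non-control probes; a filter that kept a probe if all arrays of some group had it well above background (20452 probes); the probe with the highest mean per gene (16024 genes). R 4.3.3 with limma 3.58.1 fitted 6 group means over 16 arrays (10 residual degrees of freedom, prior 4.87), with eBayes; p-values were adjusted by Benjamini-Hochberg over the 16024 genes, with a threshold of 0.05. The number of arrays limits the precision. Fits were tested on simulated data. "At least" folds set dim values to the highest of the 16 arrays' lowest signals above background, a stricter limit than each array's own.

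The comparison and the 37 gene lists were chosen with earlier results of these data known. Named are Brca1; genes of smallest p with plain symbols in each direction whose arrays do not overlap (up to 8); the member of smallest p of each list; genes of smallest p in the tests against untreated and 1-week cortex; and Bard1, Hmox1, Tfrc, Slc7a11, Gpx4, Cdkn1a, Havcr1, Lcn2, Spp1 and Mki67. Other list members and neighbours were named after their values were seen. Some genes that this rule names are not reported here. Alternatives were scaling, background, filter, dim values, probes, weights, slide and replicate blocks, and leaving out arrays.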

Additional observations from a re-analysis of the deposited data

Results flagged for a closer look

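The genotype difference itself differed between 3 weeks and 1 week in 19 genes (limma, adjusted p under 0.05). The changes with the smallest p were -4.01 in Upb1, -2.97 in Pfn3, -6.26 in Ces1e, -2.28 in Sbspon and -5.12 in Pck1, on the log2 scale. With dim values at the detection limit Ces1e changed by -2.36 and did not pass (adjusted p = 0.308). In these 5 genes the mean of BRCA1+/- lay above wild type after 1 week and below it after 3 weeks. They were chosen by this change on the same arrays, so that order is no separate result. Groups of 2 or 3 arrays were not tested for outlying values, and the wild-type array 3 of 1 week, which correlated least with its group, is described with the 1-week counts above.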

How the results depend on the processing

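After 3 weeks the count of called genes was 0 with all settings but these: 2 with the normexp correction, 3 with dim values at the detection limit, 31 with array weights, 2 within slide 1, and 0 to 1 when 1 array was left out. The count at an unadjusted p under 0.05, 933, became 2221 without the filter on dim probes, 3690 with array weights, 2216 from the 6 arrays alone and 199 within slide 1, and 542 to 1020 with 1 array left out. The 1-week count, 90, became 1 without the filter, 163 with probes above background in both 3-week groups, 9 with array weights, 34 with the slide as a block and 164 with a prior variance following the level, and 1 to 138 with 1 array left out. In untreated cortex 4 genes were called with dim values at the detection limit, 3 with array weights and 0 to 2 with 1 array left out. Against untreated cortex 2 were called with dim values at the limit and 1 with array weights. The count of 19 became 6 with quantile scaling, 37 with median scaling, 94 with normexp, 0 without the filter, 58 with probes above background in both 3-week groups, 30 with dim values at the limit, 457 with array weights, 6 with the slide as a block and 69 with the prior variance following the level, and 0 to 93 with 1 array left out. The genes called were not always the same. After 1 week normexp called 86, with 32 of the 90 among them, and dim values at the limit called 109, with 65. Of the 19, 6 were called again with quantile scaling, 17 with median scaling, 10 with normexp and 13 with dim values at the limit. The slide as a block kept 5 of them, and array weights and the prior variance setting kept all 19. The prior variance setting was chosen after seeing the data. The cause of these shifts was not tested.

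Arrays of the same number did not deviate together after 3 weeks (r of -0.16, 0.11 and -0.13). The other groups were not checked, and so few values cannot exclude a pairing. With the replicate number as a block, 0 genes were called after 3 weeks, 92 after 1 week and 4 in place of 19. Over all settings, 2188 of 2220 values of genes named for the 3-week difference kept their direction and did not pass. Another 17 passed, and 15, none of them past the threshold, turned sign or became 0. Many of these genes were chosen by a small p or by arrays that did not overlap, and the settings reuse those arrays. Kept directions are therefore largely fixed by the choice. Signals near background limit the dim genes, for which a difference can vanish at the detection limit.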
